A study of Mus musculus with 2 samples.

Results

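Resident peritoneal and tissue macrophage genes were examined in RNA-seq of the whole omentum, a fold of abdominal fat that carries lymphoid clusters called milky spots. The set held 9 genes chosen by name as resident macrophage genes, with earlier results of these data known, namely Gata6, Timd4, Adgre1, Folr2, Icam2, Lyve1, Cd5l, Prg4 and Garnl3. All 9 were among the 24346 gene symbols listed. There were 2 libraries, 1 of WT and 1 of Postn-DTR omentum, and both groups had received diphtheria toxin (DT) 5 days earlier. Postn-DTR mice were heterozygous for a diphtheria toxin receptor inserted at the Postn gene on a C57BL/6 background, so that the toxin kills cells that use the Postn promoter. In the omentum the intended targets are Aldh1a2+ fibroblastic reticular cells (FRCs), stromal cells able to make retinoic acid. The authors reported a partial loss of another FRC fraction as well. Postn is also used by mesenchymal cells outside the omentum, so that the ablation is not restricted to this tissue. The age and sex of the mice, and the number of mice behind each library, are not given in the sources used here.

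Resident macrophages are long-lived cells that adopt a programme set by the tissue around them. In the peritoneal cavity, large peritoneal macrophages depend on the transcription factor GATA6, which retinoic acid from the surrounding stroma induces. A distinct resident population lies along vessels and in fat, and carries LYVE1, FOLR2 and often TIM-4, the product of Timd4. The question addressed here is how the transcripts of both programmes stood in the omentum after an ablation aimed at a stromal source of retinoic acid. Retinoic acid itself was not measured in these data.

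Each genotype had 1 library, so no spread between animals could be measured, no test between genotypes was possible, and no p-value is given. Values are FPKM, fragments scaled to transcript length and sequencing depth, so that levels of different genes can be set side by side. The change of a gene is its log2(FPKM + 1) in Postn-DTR less that in WT, a scale on which low genes move less than their ratio. Folds are plain ratios of FPKM. A gene was called higher or lower when its change reached 2-fold, over the 13127 genes whose FPKM averaged 1 or more. By low FPKM values, the WT library was estimated to hold about 23200000 fragments and the Postn-DTR library 24000000. On that basis counting error contributed a standard error of 0.025 to 0.084 to the log2 change of the 9 genes, which covers counting only and not differences between mice.

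The targeted gene, Postn, was checked first. Here and below, paired values give WT first and Postn-DTR second. Its FPKM was 58.3 and 16.2, 3.61-fold lower in the library labelled as carrying the receptor. The receptor was inserted in the first coding exon of Postn in these heterozygotes. The parts of this insertion and of cell loss in the Postn difference were not tested. The libraries also differed in tissue content. Summed FPKM of 24 pancreatic acinar genes was 12354 and 61.6, and the part of this difference in the macrophage values was not tested. Mesothelial markers, which line the omentum, were present in both libraries, with summed FPKM of 550.3 and 603.0. The choice of scaling matters for small changes. With the acinar genes left out and the totals equalised, a setting called equal totals here, the median change of all genes moved by -0.30. Summed FPKM over all genes was larger in Postn-DTR even with the acinar genes counted, so that this setting is not a correction for acinar content alone. It lowers all Postn-DTR values relative to WT. The share of called genes that were higher was 55.4% as deposited and 28.7% at equal totals.

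Of the 9 resident macrophage genes, 4 were at least 2-fold higher in Postn-DTR, 0 were at least 2-fold lower, and 5 stayed within 2-fold. Among all genes compared, 3.88% were called higher and 3.12% lower. The 4 higher genes were Prg4, Cd5l, Adgre1 and Garnl3. Gata6, Icam2 and Timd4 had higher values that did not reach 2-fold, and Folr2 and Lyve1 lay close to their WT values. The median change of the 9 genes was 0.80, against 0.02 over all genes compared, where the 5th to 95th percentiles ran from -0.79 to 0.87. In whole tissue, more cells of a type and more RNA per cell cannot be told apart. The authors separately counted omental macrophages at 5 days after DT and reported that their number was not altered.

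**Figure D1:**
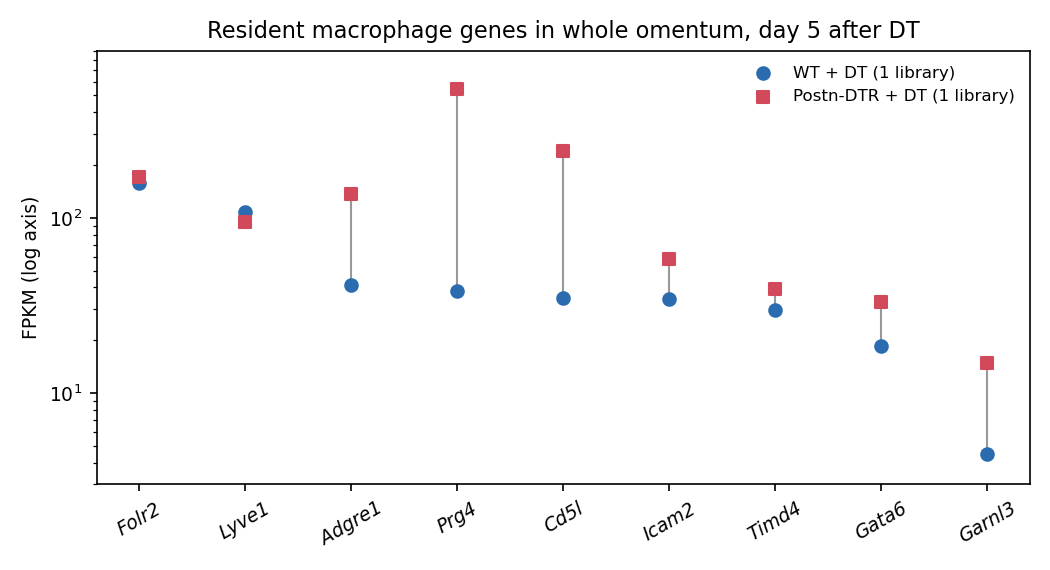
FPKM on a log axis for the 9 resident macrophage genes, ordered by WT level, with 1 point per library (circles WT, squares Postn-DTR) and no error bars because each genotype had 1 library. Prg4 and Cd5l moved from 38.0 and 34.7 FPKM to 545.0 and 241.8, while Folr2 and Lyve1 kept similar values.

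The upstream sequences of Cd5l and Timd4 are shown because Cd5l is among the genes with the largest difference and Timd4 among those with a small one. RefSeq promoters matched 4 of the 9 genes by symbol, namely Cd5l, Timd4, Folr2 and Garnl3. Each sequence below is the 250 bases before the start that RefSeq gives the gene on GRCm38.p6, plus strand, chr3:87357631-87357880 for Cd5l and chr11:46810549-46810798 for Timd4. The RefSeq start of Timd4 lies 1 base before the GENCODE start given with its values. Capitals mark matches, on either strand, to 4 short motifs: AGGTCA, a half-site of nuclear receptors such as those for retinoic acid; GAGGAA, a core read by PU.1; TGCTGA, a half-site read by MAF proteins; and AGATAA, read by GATA factors.
Cd5l: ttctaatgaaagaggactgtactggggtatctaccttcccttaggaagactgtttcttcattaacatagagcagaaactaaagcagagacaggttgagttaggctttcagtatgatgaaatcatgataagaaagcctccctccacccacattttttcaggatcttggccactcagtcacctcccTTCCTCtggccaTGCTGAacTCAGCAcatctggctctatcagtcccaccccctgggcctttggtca
Timd4: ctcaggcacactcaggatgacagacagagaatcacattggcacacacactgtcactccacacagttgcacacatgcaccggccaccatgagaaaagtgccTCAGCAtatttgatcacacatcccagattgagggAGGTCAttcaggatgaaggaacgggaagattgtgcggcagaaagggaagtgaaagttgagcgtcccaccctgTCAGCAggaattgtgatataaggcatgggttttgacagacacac
The Cd5l sequence held 1 match to the PU.1 core and 2 to the MAF half-site. The Timd4 sequence held 2 matches to the MAF half-site and 1 to the nuclear receptor half-site. The MAF matches of Cd5l began at -54 and -46 from the start, in opposite orientations, and those of Timd4 at -150 and -44, in the same orientation. Neither held AGATAA, and no 2 matches overlapped. Other forms of these motifs were not searched for, so that the lack of a match does not mean the lack of a site. The Cd5l sequence, for one, holds TGATAA, another form of the GATA site. Among all 32851 promoters of the same length, 14.0% held AGGTCA, 23.3% GAGGAA, 16.1% TGCTGA and 9.99% AGATAA at least once. Single matches are thus common, and how many promoters hold a close pair such as that of Cd5l was not counted. All matches describe letters, not binding.

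Prg4 encodes lubricin, a secreted proteoglycan that coats joint and serosal surfaces and is a marker transcript of large peritoneal macrophages. Its gene (ENSMUSG00000006014) lies on chromosome 1, from 150449412 to 150466165 on the minus strand of GRCm38. WT omentum held 38.0 FPKM of Prg4 and Postn-DTR omentum 545.0, 14.3-fold more, with a change of 3.81. Of the 13127 genes compared, 18 had a larger increase. Across the 7 alternative settings its change ran from 3.46 to 3.84. Exons of Prg4 overlap the gene Tpr on the opposite strand, and Tpr had similar values of 21.8 and 23.9.

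Cd5l encodes AIM, a secreted scavenger receptor cysteine-rich protein made by resident macrophages. The gene (ENSMUSG00000015854) lies on chromosome 3, from 87357881 to 87371073 on the plus strand. Its level was 34.7 FPKM in the WT library and 241.8 FPKM in the Postn-DTR library, 6.97-fold higher, with a change of 2.77. Larger increases were found for 64 genes, or 0.488% of those compared. The range over the alternatives was 2.42 to 2.80.

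Prg4 and Cd5l together altered the make-up of the set. They contributed 15.6% of its summed FPKM in WT and 58.9% in Postn-DTR. Folr2 and Lyve1, the most abundant of the 9 genes in WT, contributed 57.1% there and 19.9% in Postn-DTR. The sum over the 9 genes was 467.7 in WT and 1335 in Postn-DTR, 2.85-fold higher, and over the 7 genes other than Prg4 and Cd5l it was 395.0 and 548.0.

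Adgre1 encodes F4/80, the adhesion receptor by which mouse macrophages are commonly stained. The gene (ENSMUSG00000004730) lies on chromosome 17, from 57358691 to 57483527 on the plus strand. Its FPKM of 41.1 and 137.6 differed 3.35-fold, with Postn-DTR higher, a change of 1.72 that ranged from 1.38 to 1.74 over the alternatives. A larger increase was seen for 1.27% of the genes compared. Eosinophils also carry F4/80. Of 7 eosinophil markers 4 were compared, and all 4 had higher values in Postn-DTR. Of these Ear2 alone was called, at 13.7 and 29.1. Siglecf and Epx, taken as defining markers, were close to 0 and not compared. Their values were 0.0584 and 0.207 for Siglecf and 0.0862 and 0.0333 for Epx. Summed FPKM of the eosinophil list was 29.0 and 51.1. The part of eosinophils in the Adgre1 value was not tested.

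Garnl3 encodes a protein with a RapGAP-like domain and is known as a transcript of large peritoneal macrophages. The gene (ENSMUSG00000038860) lies on chromosome 2, from 32986224 to 33131654 on the minus strand. Garnl3 was the least abundant of the 9 genes in both libraries, at 4.49 and 14.9 FPKM. This was 3.31-fold higher, with a change of 1.53 and a range of 1.07 to 1.70. It was the called gene nearest to the threshold and dropped out where the FPKM had to average 10 or more.

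Gata6 (ENSMUSG00000005836, chromosome 18, plus strand) encodes the retinoic acid-induced transcription factor of large peritoneal macrophages. The WT library listed it at 18.6 FPKM and the Postn-DTR library at 33.1 FPKM, 1.78-fold higher. The change of 0.80 did not reach 2-fold, and 5.91% of genes compared had a larger increase. Under the alternatives it ran from 0.47 to 0.83, above 0 in 7 of 7. Thus the Gata6 transcript was not lower in the omentum of the toxin-treated Postn-DTR library. The authors examined the peritoneal cavity directly, and reported that neither macrophage number nor GATA6 protein in large peritoneal macrophages was affected in Postn-DTR mice. That result is on protein in cells of the cavity at a later day, whereas the values here are RNA of whole omentum. Exons of Gata6 overlap 1010001N08Rik on the opposite strand, which had an FPKM of 12.9 and 20.1. Whether the counting used strand is not given in the sources used here, so reads of the pair may not be fully separated.

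Mesothelial cells also transcribe Gata6 and Prg4, and their markers were therefore set beside both. Of 10 mesothelial markers, 0 were called higher and 1 was called lower, with a median change of 0.30. Msln was at 37.2 and 67.9, and Upk1b at 39.4 and 75.3. Upk3b, the most abundant, was at 211.6 and 181.9, and Lrrn4 went the other way, from 62.7 to 29.2. The markers thus did not share a direction. Wt1, a transcription factor of mesothelium and of some omental fibroblasts, was at 52.1 and 63.2. The part of mesothelial cells in the Gata6 and Prg4 values was not tested.

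Icam2 encodes an adhesion molecule that binds the integrin LFA-1 and is used both to stain large peritoneal macrophages and as an endothelial gene. It (ENSMUSG00000001029) lies on chromosome 11, from 106377656 to 106388075 on the minus strand. Its FPKM was 34.3 and 58.0, 1.69-fold higher in Postn-DTR, with a change of 0.74 that ranged from 0.41 to 0.76. The 8 blood endothelial markers had 0 genes called in either direction and a summed FPKM of 323.1 and 320.8. Pecam1 was at 109.0 and 109.5, Cldn5 at 13.9 and 19.7 and Kdr at 22.4 and 13.6. At equal totals 1 of the 8 was called lower. The part of endothelial cells in the Icam2 value was not tested. Of the LFA-1 subunits, Itgal was at 23.6 and 13.8 and Itgb2, which pairs with several alpha chains including CD11b, was called higher at 96.5 and 285.9.

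Timd4 encodes TIM-4, a receptor for phosphatidylserine on dying cells. The gene (ENSMUSG00000055546) lies on chromosome 11, from 46810800 to 46844332 on the plus strand. It was listed at 29.6 and 39.2 FPKM, a ratio of 1.32 and a change of 0.39, with 17.2% of genes showing a larger increase. At equal totals the change was 0.061, so that the difference could not be told from the choice of scaling. Of the other genes of apoptotic cell uptake, 0 of 14 compared were called in either direction, with a median change of -0.09. Mertk, a receptor tyrosine kinase that engulfs such cells, was at 17.0 and 34.4, just under 2-fold on the log2(FPKM + 1) scale, and its ligand Gas6 at 303.7 and 417.6. The bridging protein Mfge8 was at 176.7 and 113.2. At equal totals 1 gene of this list was called lower, and with a pseudocount of 0.1 there was 1 in each direction.

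Folr2 and Lyve1 mark perivascular and other tissue macrophages. Folr2, which encodes folate receptor beta (ENSMUSG00000032725, chromosome 7, 101839988 to 101857194, minus strand), was at 158.4 and 170.3 FPKM, a change of 0.10. The Folr2 change was above 0 in 6 of 7 alternatives and turned to -0.24 at equal totals, so that its direction depended on the scaling. Lyve1, which encodes a hyaluronan receptor (ENSMUSG00000030787, chromosome 7, 110850607 to 110863239, minus strand), was at 108.5 and 95.04 FPKM. Its change of -0.19 was the only negative one of the 9 as deposited, and it ranged from -0.53 to -0.18 without reaching 2-fold. Lymphatic endothelium also carries LYVE1. Of 7 lymphatic markers 5 were compared and 0 were called, and their summed FPKM was 71.3 and 84.4. Ccl21a was at 17.0 and 18.6, Flt4 at 2.53 and 3.08 and Mmrn1 at 1.74 and 2.30, while the transcription factor gene Prox1 was close to 0 at 0.0218 and 0.0738. The part of lymphatic endothelium in the Lyve1 value was not tested.

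**Figure D2:**
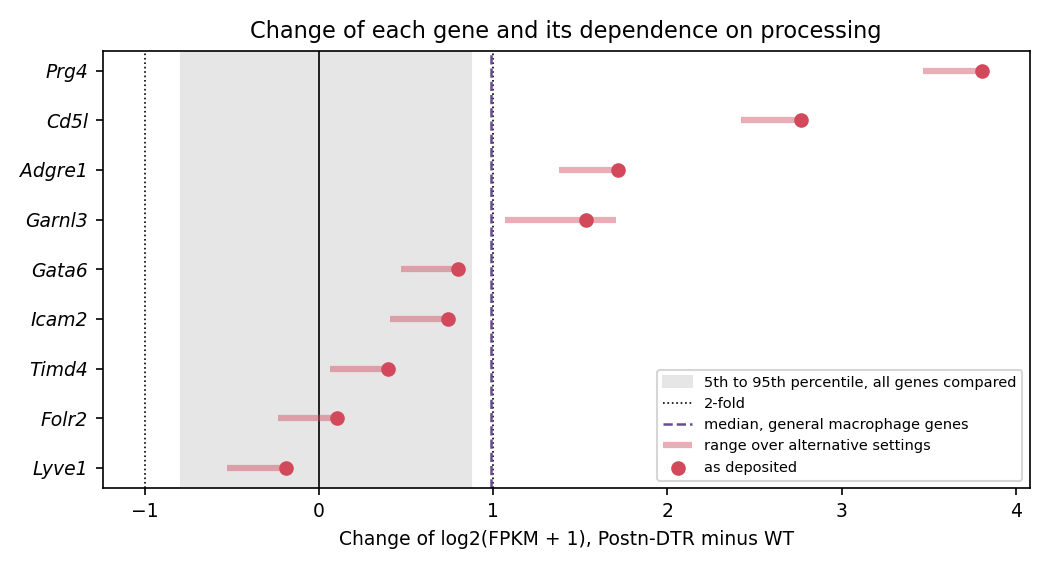
Change on the log2(FPKM + 1) scale, with positive values higher in Postn-DTR, for each of the 9 genes (points), with the range over the alternative settings as bars, the 5th to 95th percentile of all 13127 genes as a grey band, 2-fold as dotted lines and the median of the general macrophage genes as a dashed line. Prg4, Cd5l, Adgre1 and Garnl3 stayed past 2-fold under each alternative scaling and pseudocount, and the Folr2 bar crosses 0.

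In WT the order of FPKM was Folr2, Lyve1, Adgre1, Prg4, Cd5l, Icam2, Timd4, Gata6 and Garnl3. In Postn-DTR it was Prg4, Cd5l, Folr2, Adgre1, Lyve1, Icam2, Timd4, Gata6 and Garnl3. Prg4 thus moved from the fourth to the first place and Cd5l from the fifth to the second, and Icam2, Timd4, Gata6 and Garnl3 held theirs. In WT, Prg4, Cd5l and Icam2 lay between 34.3 and 38.0 FPKM, and with 1 library their order has no replicate check.

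Genes that most macrophages use were compared next, to see how far the resident genes went with them. Of 14 general macrophage genes 6 were called higher and 0 lower, with a median change of 0.99. This number fell to 3 at equal totals. Csf1r, the receptor that keeps macrophages alive, was at 158.3 and 219.1, C1qb at 772 and 1536, and Lyz2 at 2459 and 3563. The largest differences were those of Cd14, at 33.6 and 230.1, and Itgam, which encodes CD11b, at 46.8 and 251.9. Aif1 went the other way, at 46.4 and 29.2. The median of the 9 resident genes was 0.19 below that of the general genes, a difference of -0.19 that ranged from -0.26 to -0.17 over the alternatives. The resident genes lay on both sides, 4 above the general median and 5 below it.

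Levels relative to macrophage genes of the same library do not depend on scaling between libraries, but they do depend on how the reference gene differed. Cd68 was itself called higher, at 113.8 and 369.4, 3.25-fold. C1qa was at 726.8 and 1282, 1.76-fold higher, and Csf1r differed least, 1.38-fold. A lower value against Cd68 can thus restate the higher Cd68 value. Prg4 and Cd5l were higher against Csf1r, C1qa and Cd68 alike, and against Cd68 they went from 33.4% to 147.5% and from 30.5% to 65.5%. Adgre1 was 26.0% and 62.8% of Csf1r and 5.66% and 10.7% of C1qa, but 36.1% and 37.3% of Cd68. Garnl3 was likewise 2.83% and 6.78% of Csf1r but 3.94% and 4.02% of Cd68. Lyve1, Folr2 and Timd4 had lower values against all 3 references, though Timd4 hardly differed against Csf1r. Lyve1 was 68.6% and 43.4% of Csf1r, 14.9% and 7.41% of C1qa and 95.3% and 25.7% of Cd68. Folr2 was 21.8% and 13.3% of C1qa and 139.1% and 46.1% of Cd68. Timd4 was 18.7% and 17.9% of Csf1r, 4.07% and 3.05% of C1qa and 26.0% and 10.6% of Cd68. For Gata6 and Icam2 the direction depended on the reference. Gata6 was 11.7% and 15.1% of Csf1r, 2.56% and 2.58% of C1qa and 16.3% and 8.96% of Cd68. Icam2 was 21.7% and 26.5% of Csf1r, 4.72% and 4.52% of C1qa and 30.1% and 15.7% of Cd68.

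**Figure D3:**
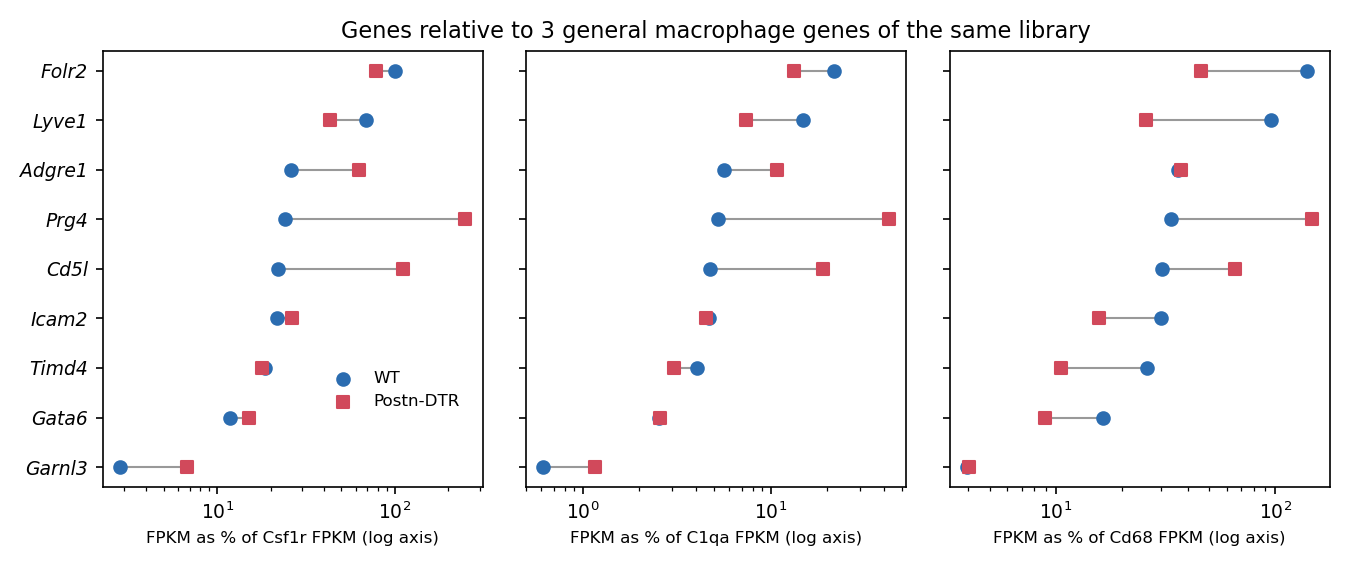
FPKM of each gene as a percentage of Csf1r, C1qa or Cd68 FPKM in the same library, on log axes (circles WT, squares Postn-DTR, 1 library each). Prg4 and Cd5l lie to the right of WT in all 3 panels and Folr2, Lyve1 and Timd4 to the left, and Gata6 and Icam2 change sides between panels.

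Further genes of both resident programmes were then examined. Of 14 other large peritoneal macrophage genes 8 were called higher and 0 lower, with a median change of 1.33 that was 1.03 at equal totals. F10, which encodes a coagulation factor, was at 3.08 and 64.5, 20.9-fold higher. Alox15, which encodes 12/15-lipoxygenase, was at 33.1 and 317.0, 9.57-fold higher. Fcna, a ficolin gene of complement activation, was at 284.7 and 701.0. The higher genes thus included the largest change of the list and its second most abundant gene. Named after their values were seen, F5 was at 2.56 and 19.0, Selp at 8.55 and 44.3, Serpinb2 at 2.72 and 30.2 and Vsig4 at 45.6 and 129.6. Also named in this way, and within 2-fold, were Ltbp1 at 11.2 and 12.5 and Aspa at 9.67 and 13.2. The same held for Hgf at 1.63 and 2.77 and Itga6 at 14.5 and 23.8. Tgfb2 was at 5.23 and 5.81 and Cxcl13, also made by stromal cells, at 1038 and 940.4, so that the list did not move as a block.

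Of 14 other perivascular and adipose tissue macrophage genes 2 were called higher and 1 lower, with a median change of 0.36. At equal totals 0 were higher and 1 was lower, with a median of 0.023. The higher genes were Cd163, a haemoglobin scavenger receptor gene, at 29.2 and 69.5, and Clec10a, a lectin gene, at 71.1 and 148.2. Mgl2, a close relative of Clec10a, was lower at 60.9 and 22.3, and reads of the pair may not be fully separated. Fcgrt was at 208.6 and 259.0. Whether the 2 lists differ was not tested, since 2 libraries give no test.

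**Figure D4:**
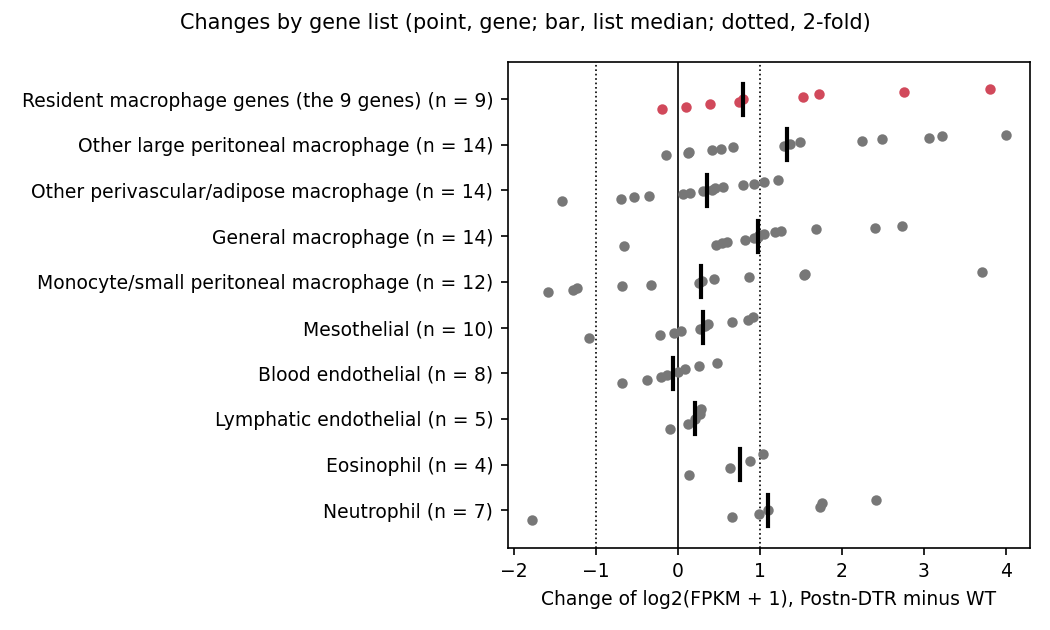
Change on the log2(FPKM + 1) scale, with positive values higher in Postn-DTR, of each gene compared (points) in 10 lists, with list medians as bars and 2-fold as dotted lines. The medians are 0.80 for the 9 resident genes, 1.33 for other large peritoneal macrophage genes, 0.36 for other perivascular and adipose tissue macrophage genes and 0.99 for general macrophage genes.

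Because Gata6 depends on retinoic acid, the enzymes, carriers and receptors of this pathway were set beside it. Of 18 genes compared 2 were called higher and 1 lower, with a median change of 0.30 that was -0.033 at equal totals. With a pseudocount of 0.1, which weighs low genes more, 3 were higher and 2 lower. Of the synthesis genes, Aldh1a2, the enzyme gene that marks the ablated FRCs, was at 85.5 and 63.3. Its relatives Aldh1a1, at 66.6 and 122.7, and Aldh1a3, at 4.19 and 1.69, differed in opposite directions but were not called. Rdh10, which makes retinal, was at 17.9 and 22.6. No synthesis gene thus reached 2-fold on the log2(FPKM + 1) scale. The carrier gene Rbp4, whose product brings retinol in the blood, was the gene called lower, at 155.4 and 47.8. The nuclear receptors that read retinoic acid were all within 2-fold on that scale. Among those, Rara was at 20.8 and 23.9, Rarg at 30.8 and 40.7, Rxra at 39.0 and 43.3 and Rxrb at 27.5 and 32.7. The largest difference was that of Rarb, at 3.08 and 6.63, a plain ratio of 2.15, and Rxrg went the other way, at 3.69 and 2.80. The genes called higher were Stra6, a retinol uptake receptor, at 7.43 and 17.5, and Cyp26a1, which clears retinoic acid and rested on about 7 reads in WT, at 0.190 and 9.33. Cyp26b1 was at 8.87 and 13.1 and Dhrs3 at 110.5 and 143.7, within 2-fold as Gata6 was.

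Of 13 partners and relatives of the 9 genes compared, 2 were called higher, Itgb2 and Has1, and 0 lower. Has1, which makes the hyaluronan that LYVE1 and CD44 bind, was at 0.976 and 14.4, 14.8-fold higher, whereas Has2 was at 1.62 and 0.400 and Cd44 at 43.0 and 44.3. Of these genes, Has1 alone was called. Has2 was 4.06-fold lower as a plain ratio, but its change of -0.91 did not reach 2-fold. The folate carrier gene Slc46a1 was at 10.03 and 4.89, and Slc19a1 at 8.98 and 7.58. Of the relatives of Adgre1, Adgre5 was at 117.7 and 151.0 and Adgre4 at 9.50 and 5.79. Neither reached 2-fold. Gata4, the closest relative of Gata6 on this list, was under the expression minimum at 0.336 and 0.377, and Gata2 was at 4.02 and 4.98. Both at equal totals and with a pseudocount of 0.1, 2 of the 13 were called lower.

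The genes with the most similar values were found by distance over the 2 libraries on the log2(FPKM + 1) scale, a likeness that rests on 2 points. Among those nearest to Gata6 were Cxcr4, at 18.5 and 33.0, and Mbd1. Those nearest to Adgre1 were Ctla2a, Trem2, at 40.5 and 145.6, and Fkbp5. Those nearest to Timd4 were Edem1, Tmem198b and Mrps23.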

How the data were processed

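Per the labels, whole-omentum RNA was purified by miRNeasy columns and a stranded TruSeq mRNA kit was used for the libraries. The authors deposited FPKM, with 1 value per gene symbol in each library. Their processing notes name TopHat2 2.1.1, Bowtie2 2.2.8, SAMtools 0.1.18, Cuffdiff 2.2.1 and mm10. The annotation and any scaling between libraries are not given in the sources used here. Such scaling would move the changes of abundant genes nearly alike and those of low genes less. Libraries were grouped by the genotype label. Changes of log2(FPKM + 1) were computed in Python 3.11.15 with pandas 2.3.3 and checked on simulated data. Positions came from GENCODE M21 (GRCm38, the build named mm10) and promoters from RefSeq (GRCm38.p6). Depth was estimated as the value for which FPKM of low genes with 1 transcript became whole reads. Within a tolerance of 0.03 reads, 68.1% of low WT values and 69.3% of low Postn-DTR values came out whole, and the estimate is approximate. Members and gene lists were chosen with earlier results of these data known, and some lists share genes. Ly6g, Ighm and Amy2a1 were not analysed here. Named were all 9 genes, the retinoic acid and partner lists, the nearest genes in pattern, and of other lists the 2 largest increases, 2 largest decreases and 2 highest means, and some genes that the rule takes are not reported here. Genes outside this rule are identified, apart from defining cell type markers and the reference genes C1qa and Cd68.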

Additional observations from a re-analysis of the deposited data

How the results depend on the processing

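The numbers of resident genes at least 2-fold higher and lower, 4 and 0, held under both other pseudocounts, without an expression minimum, and under the 3 other scalings. The number higher was 3 at an FPKM minimum of 10, since Garnl3 was then not compared, 6 at a 1.5-fold threshold and 3 at a 3-fold threshold, which change it by construction. The median change of 0.80 was 0.69 with a pseudocount of 5, 0.70 with both libraries scaled to the same 75th percentile and 0.47 at equal totals. Among the 9 genes Folr2 alone changed sign, to -0.24 at equal totals. Over all genes the numbers lower and higher, 410 and 509, were 643 and 642 at a pseudocount of 0.1, 168 and 287 at a pseudocount of 5, 173 and 303 at the FPKM minimum of 10, and 739 and 297 at equal totals. Thresholds of 1.5-fold and 3-fold gave 1160 and 1294, and 153 and 199. No paired analysis was possible because each genotype had 1 library. Counting error was small for the 9 genes, and the spread between animals could not be measured.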

Other observations

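Markers of newly arrived or activated myeloid cells were mixed. Of 12 monocyte and small peritoneal macrophage genes 3 were called higher and 3 lower. Chil3, a chitinase-like protein gene of monocytes and activated macrophages, was at 12.1 and 170.0 FPKM (WT first), and Irf4, a transcription factor gene of small peritoneal macrophages and lymphocytes, at 13.3 and 41.0. Cx3cr1, a chemokine receptor gene, was lower at 16.7 and 4.92, and Itgax, which encodes CD11c, at 11.2 and 4.06. Of 10 genes of lipid-associated and activated macrophages 6 were called higher and 1 lower. Arg1, an arginine-degrading enzyme gene, was at 4.68 and 427.3 and Spp1, which encodes osteopontin, at 1.02 and 78.3. Of 7 neutrophil markers 4 were higher and 1 lower, with Retnlg at 12.8 and 72.6 and Ngp at 48.0 and 13.2.

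Of 16 macrophage transcription and growth factor genes compared 3 were called higher and 1 lower, with a median change of 0.28. Cebpb was at 39.0 and 110.3 and Klf2 at 96.2 and 246.8. Maf was at 48.1 and 28.7. Il34, a ligand of the CSF1 receptor, was lower at 39.5 and 14.6. The 4 genes listed for B1 B cells, neighbours of these macrophages in the cavity, were at lower values. Of them 1 was called, Cd5, at 7.65 and 2.42. T cells also carry Cd5, and their part in these values was not tested. At the same time after DT the authors reported fewer omental T cells and unaltered numbers of B1 B cells. The 7 housekeeping genes had 0 called in either direction and a median change of 0.19.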
